A study of Mus musculus with 13 samples.

Results

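MTR4 is an RNA helicase that unwinds RNA and feeds it to the nuclear exosome, a 3' to 5' RNA-degrading complex. Together with adaptor proteins it clears spliced-out snoRNA-bearing introns, promoter-derived transcripts, unstable long noncoding RNAs and wrongly processed mRNAs before they reach the cytoplasm. Growing mouse oocytes store most of their polyadenylated RNA in a large cytoplasm. The nucleus of a WT oocyte thus normally holds a small part of most mRNAs.

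The genes described here had, in the deposited table, little nuclear relative to cytoplasmic signal in WT oocytes and at least as much nuclear as cytoplasmic signal in MTR4-null oocytes. A gene was taken when its MTR4-null nucleus value was at least 20, this value was at least that of the MTR4-null cytoplasm, and the WT nucleus value was at most 0.15 times the WT cytoplasm value. Symbols of microRNAs, snoRNAs, Cajal body RNAs, snoRNA hosts (Snhg), histones, Zfp genes, olfactory and vomeronasal receptors, pseudogenes (-ps) and 1 series of Riken clone names were left out. Of 23235 gene symbols, 5824 had an MTR4-null nucleus value of at least 20. Of these, 478 (8.21%) were at least as high in null nuclei as in null cytoplasms, 129 also met the WT limit, and 90 were left after the exclusions by name. The genes were thus chosen by their measured values in all 4 columns, so those values are given as a description and nothing was tested with them.

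The study measured poly(A) RNA from micromanipulated nuclei and cytoplasms of WT and Mtr4-null mouse oocytes, 10 nuclei or cytoplasms in each of 13 Smart-seq2 libraries. Both Mtr4-null groups, nuclei and cytoplasms, were of day 21 and had 2 libraries each. The WT groups were day 14 nuclei and cytoplasms with 2 libraries each, day 21 nuclei with 3 and day 21 cytoplasms with 2. The labels give neither the mouse strain nor how the allele was made null, and whether libraries came from separate animals is not stated. The table holds 1 value per gene for each genotype and compartment, with no single libraries, so no value has an error and no difference could be set against a spread between replicates. Its WT columns name no day, so genotype and age cannot be told apart wherever null is set against WT.

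The columns carried different totals, of 594034 in WT nuclei, 1396105 in null nuclei, 6637346 in WT cytoplasms and 3007242 in null cytoplasms. Read depth is unknown. Each difference was therefore taken in 2 ways on the log2(value + 1) scale, from the deposited values and from values rescaled so that the typical gene above 0 in all 4 columns stood level across them. The rescaled kind is called relative: it sets a gene against the median gene, and on either scale less RNA per cell and a change in the makeup of that RNA cannot be told apart. The added 1 understates changes of low genes. Skiv2l2, which encodes MTR4, had values of 13.3 in WT nuclei, 3.54 in null nuclei, 187 in WT cytoplasms and 4.36 in null cytoplasms. All 14 oocyte markers examined (zona pellucida genes, Gdf9, Bmp15 and others) were above 1 in every column and made up 1.83% to 3.89% of the totals. The 19 granulosa cell markers summed to between 0.00733% and 0.0156% of the totals. Under 1 were 14 of them in WT nuclei, 11 in null nuclei, 2 in WT cytoplasms and 0 in null cytoplasms. At 0 were Foxl2, Fst, Gja1, Inha and Nr0b1 in null nuclei, Amh and Nr0b1 in WT nuclei, and Nr0b1 in WT cytoplasms. Blood and immune markers summed to at most 0.000369%, and theca, stroma and endothelial markers to at most 0.00277%.

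A name such as nuclear only would go against these values. The median of the 90 genes was 6.25 in WT nuclei, 87.8 in WT cytoplasms, 55.6 in null nuclei and 31.2 in null cytoplasms. Most of the genes thus kept a cytoplasmic value of the same order as the nuclear one. Nuclear values were at least 1.5 times the cytoplasmic value in 36 of the 90 null pairs, at least 2 times in 19 and at least 5 times in 8. Only Rnu73b and LOC100861572 were listed at 0 in null cytoplasms, and Gm9786 was listed at 0.000933. Once the ratios were rescaled by column, 5 of the 90 genes still met the rule. The others then failed the WT limit, not the null ratio. On the relative scale all 88 genes kept by a filter on low values were at least 2-fold higher in null nuclei than in null cytoplasms.

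A low WT ratio was common in the table at large and less so among rows with a high null ratio. Of 17192 rows above 0 in WT cytoplasms, 82.2% had a WT nucleus value of at most 0.15 times the cytoplasmic one, whereas 129 of the 478 rows that met the null conditions did. The genes' own WT ratio had a median of 0.0778 (87 genes, from 0.00522 to 0.149), beside 0.0712 over all rows with a null nucleus value of at least 20. The null ratio, which the rule bounds from below, had a median of 1.34 (quartiles 1.13 and 1.78) beside 0.329. The genes Rnu73b, LOC100861572 and Cfd were at 0 in both WT columns and met the WT limit because 0 is not above 0.

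**Figure D1:**
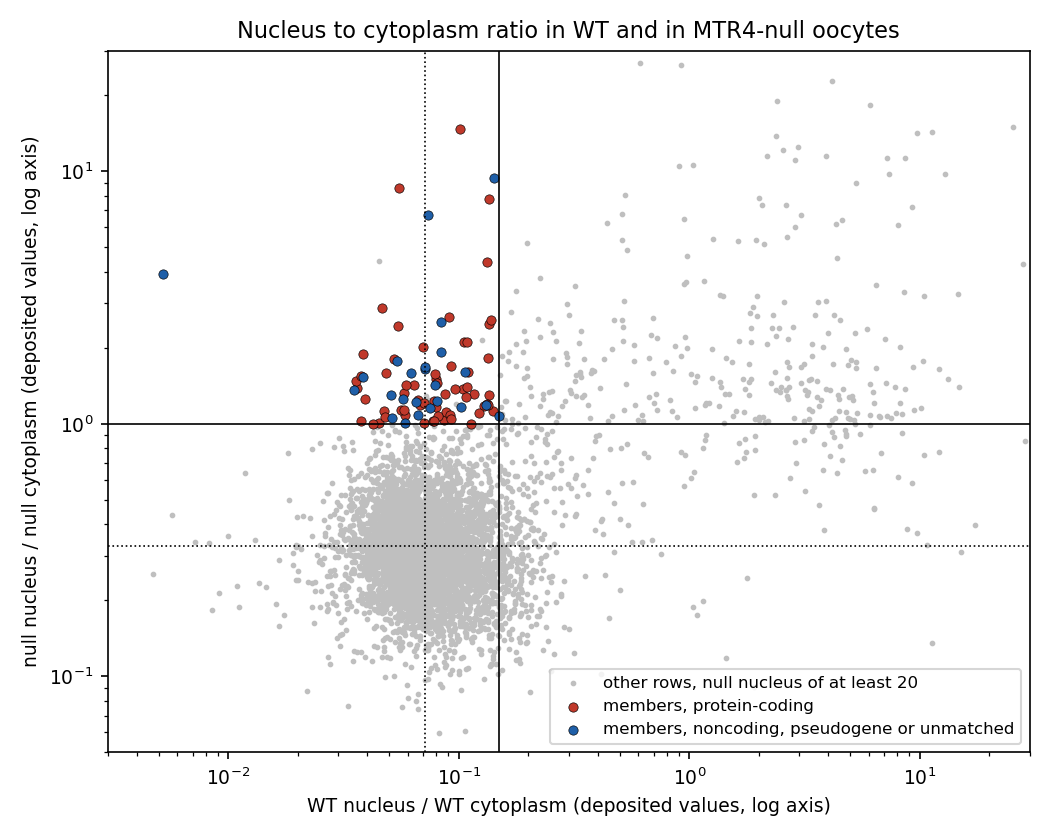
Nucleus to cytoplasm ratio in MTR4-null oocytes (vertical, log axis) against that in WT oocytes (horizontal, log axis) for rows with a null nucleus value of at least 20, from deposited values. Solid lines mark the limits of the rule and dotted lines the medians of all these rows (0.0712 and 0.329); the genes chosen lie across the middle of the WT range and at the upper edge of the null range, and rows with a 0 or outside the axes are not drawn.

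The genes nearest each limit show how it falls. At the null nucleus minimum, Ccdc60 (20.1), Hltf (20.7) and Hps1 (20.7) were the last inside, and Pbx4 (19.5), 9430083A17Rik (19.3) and Lbx2 (19.2) the first outside. At the null ratio limit, Ankle2 (134.9 in the nucleus, 134.6 in the cytoplasm) and Pla1a (56.4 and 56.3) were just inside, followed by 1700010D01Rik at a ratio of 1.01, while Fam203a (0.993), Tdrd9 (0.98) and Fgfr1 (0.979) were just outside. At the WT limit the highest ratios inside were those of the entry 44625 (0.149), Gm4956 (0.142) and Oas3 (0.141), and the lowest outside those of 4931428F04Rik (0.151), Rangap1 (0.152) and Mrpl1 (0.154). No gap set the inside apart from the outside at any of the 3 limits.

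Short sequences help to place some of these genes. Rnu73b is a C/D box snoRNA, a class of small nucleolar RNAs that guide ribose methylation and are carried in introns of host genes. Its sequence is shown because it had the second-ranked null nucleus value of the set. It comes from the GENCODE M21 transcripts (GRCm38), and capitals mark the first TGATGA, the core of the C box, and the last CTGA, which reads as a D box.
Rnu73b: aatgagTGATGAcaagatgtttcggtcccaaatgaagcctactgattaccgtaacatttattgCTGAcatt
The other sequences are stretches of dispersed repeats that occur in some transcripts of the set. B1 and B2 elements are short interspersed repeats copied from small RNA genes and spread through the mouse genome. Each stretch of 25 bases below was among the 5 most frequent over one transcript of each of 21398 long noncoding RNA genes in GENCODE M21, with hits on either strand counted, in 301 genes for the B1 stretch and 255 for the B2 stretch. Capitals mark the letters searched. The orientation printed is that of the search, which took no account of the direction of the repeat itself.
B1 stretch: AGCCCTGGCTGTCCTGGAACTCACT
B2 stretch: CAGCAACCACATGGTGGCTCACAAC

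In the nucleus, 88 of the 90 genes had a higher deposited value without MTR4 than in WT, by any amount. The share of all rows that were higher by any amount was not counted. A filter that asked for a value of 1 or more in 2 or more columns kept 14240 rows and 88 of the 90 genes, leaving out Rnu73b and LOC100861572. In 83 of the 88 the value was at least 2-fold higher in null nuclei, where 46.3% of all kept rows were, and 0 were at least 2-fold lower, where 3.69% were. On the relative scale 60 were higher (25.6% of kept rows) and 2 lower (16.4%). The median difference was 2.71 as deposited and 1.84 relative, beside 0.91 and 0.05 over all kept rows. The rule used both of these columns, and a gene low in null nuclei could not enter, so nothing is read from these counts.

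In the cytoplasm the same genes were mostly lower in null as deposited, as were other rows with a null nucleus value of at least 20. Of the 90, 69 were lower in null cytoplasms than in WT cytoplasms and 19 higher, by any amount. The same was not counted over all rows, but the median of all kept rows was lower as well, at -0.79. At least 2-fold, 50 of 88 were lower (43.7% of kept rows) and 6 higher (14.9%). That is 56.8% lower, beside 52.8% of the 5569 rows at the same null nucleus minimum, with medians of -1.09 and -1.07. Relative to the median gene, 27 were lower (19% of kept rows) and 15 higher (23.9%), with a median of -0.24 beside 0.04. Summed, the 90 genes held 0.268% of the WT nucleus total and 0.989% of the null nucleus total. In the cytoplasm their sum was 0.398% of the WT total and 0.265% of the null total.

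Between compartments, 87 of 88 were at least 2-fold lower in WT nuclei than in WT cytoplasms (91.2% of kept rows) and 0 higher (1.74%). In the null, 17 were at least 2-fold higher in the nucleus (2.91% of kept rows) and 0 lower (71.9%). Relative to the median gene, 8 of 88 were lower in WT nuclei than in WT cytoplasms (8.05% of kept rows) and 0 higher (9.36%), and all 88 were higher in null nuclei than in null cytoplasms (12.1% of kept rows) with 0 lower (9.3%). The change of nuclear share, which is the nucleus to cytoplasm difference in null minus that in WT, was at least 2-fold up in 87 (71.7% of kept rows) and down in 0 (3.32%). Its relative form was up in 87 (17.1%) and down in 0 (15.1%). The median was 4.09 as deposited and 2.24 relative, beside 1.70 and 0.08 over all kept rows. The rule fixes these directions and sets a floor under the sizes, so nothing is read from them.

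A gene can come to a null ratio above 1 by a higher nuclear value or by a lower cytoplasmic one, and both kinds were present. The rule builds in a null minus WT difference that is higher in the nucleus than in the cytoplasm. The shares below are thus a description, and nothing is read from their distance to other rows. Those other rows had passed the filter and the exclusions by name, whereas the 90 include Rnu73b and LOC100861572, which the filter left out. On the relative scale 41 of the 90 genes had a null nucleus value at least 2-fold above WT with the cytoplasm within 2-fold (45.6%, beside 5.84% of 5569 rows with a null nucleus value of at least 20). A further 15 were higher in both null compartments (16.7% beside 14.5%). In 19 the nucleus was within 2-fold and the cytoplasm lower (21.1% beside 14%). Higher in the nucleus and lower in the cytoplasm were 6, namely Ppp1r12b, Cmtm2a, Wfdc1, Mpp7, Tram2 and Timm22 (6.67% beside 0.144%). Pnpla3 and the entry 44807 were lower in both (2.22% beside 6.12%), and 7 genes were within 2-fold in both (7.78% beside 48.2%). With deposited values the split was different. Higher in the nucleus and lower in the cytoplasm were 45 (50% beside 14%), and 34 were higher in the nucleus only (37.8% beside 24%). Another 6 were higher in both (6.67% beside 10.9%) and 5 lower in the cytoplasm only (5.56% beside 38.2%).

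**Figure D2:**
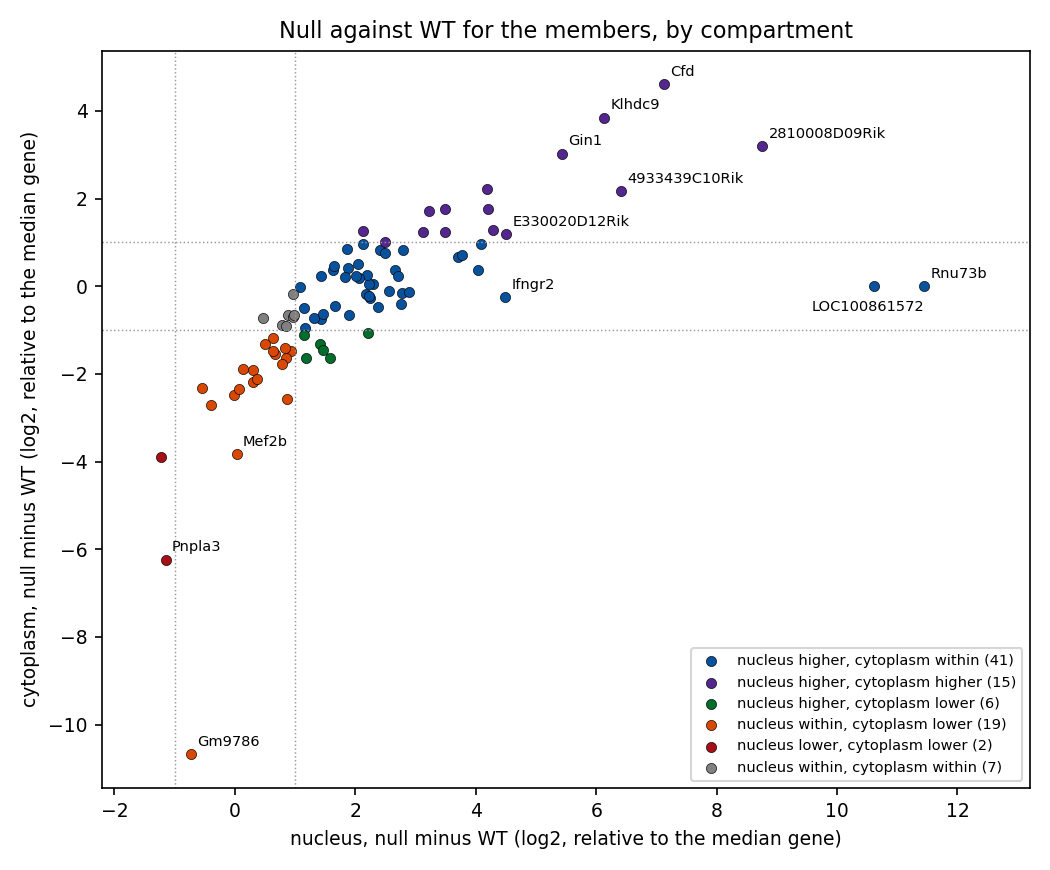
Relative null minus WT difference in the cytoplasm (vertical) against that in the nucleus (horizontal), both log2(value + 1), for each of the 90 genes; dotted lines mark 2-fold. The points mostly run along a rising band, from Pnpla3 and Gm9786 at the lower left to Cfd and 2810008D09Rik at the upper right. Rnu73b and LOC100861572 lie off it at the far right, at a cytoplasmic difference of 0 because both cytoplasm values were 0. Both are among the 41 genes that are higher in the nucleus and within 2-fold in the cytoplasm.

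To describe single genes, the 90 were sorted into 10 groups by role after the list was known. On the relative scale 68.2% of the 88 kept genes were higher and 2.27% lower in null nuclei, and 17% were higher and 30.7% lower in null cytoplasms. The counts of each group stand beside these shares and those of all kept rows given above, and nothing particular to a group is read from them. Other genes than those with the highest values are named as examples, and these were chosen after their values were seen.

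Among snoRNA genes and snoRNA hosts, 4 had passed the exclusion by name. Rnu73b was listed at 1686 in null nuclei and at 0 in the 3 other columns. In the annotation it lies inside Rps3a1, a ribosomal protein gene, on the same strand. Reads of unspliced Rps3a1 RNA over the same bases cannot be told apart from it. The entry is only 71 bases long, and how many reads its value rests on is unknown. The gene 2810008D09Rik, now named Snhg20, had values of 0.0731 in WT nuclei, 329 in null nuclei, 14 in WT cytoplasms and 84.3 in null cytoplasms. Its relative nuclear difference of 8.76 was the highest of the 88 genes kept, and its cytoplasmic one was 3.19. Snhg genes carry snoRNAs in their introns, and the annotation places the snoRNA gene Gm26083 inside this one.

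The gene 2700023E23Rik, now Dancr, a long noncoding RNA, holds Snora26. Its values were 0.410 and 26.3 in the WT and null nucleus and 3.86 and 16.5 in the WT and null cytoplasm. Both null compartments were above both WT compartments for this gene. The gene 2410006H16Rik holds Snord49a, Snord49b and Snord65. It went from 35.2 in WT nuclei to 204 in null nuclei, while the cytoplasm was 449 in WT and 143 in null. Both Rnu73b and the 3 hosts were higher in null nuclei on both scales, and the hosts differed in the cytoplasm.

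The largest noncoding group held 14 other long noncoding RNA genes. All 14 had a null nucleus value at least 2-fold above WT as deposited and 10 on the relative scale, with 4 higher and 4 lower in the cytoplasm on that scale. The gene E330020D12Rik had 13.5 in WT nuclei and 672 in null nuclei, with 352 and 437 in the cytoplasms. The relative null minus WT difference was 4.50 for nuclei and 1.19 for cytoplasms. The gene 4933439C10Rik, by contrast, was low everywhere but the null nucleus, at 0.210 in WT nuclei, 89.6 in null nuclei, 2.86 in WT cytoplasms and 13.3 in null cytoplasms. Values of Gm6313 were 52.5 in WT nuclei, 180.1 in null nuclei, 809 in WT cytoplasms and 147.5 in null cytoplasms. Its null ratio of 1.22 went with a cytoplasmic value well under the WT one (relative difference -1.56), and its nucleus was within 2-fold (0.67).

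Pseudogenes numbered 5, and 2 of them, Gm9786 and Gm8580, had near-identical copies elsewhere with which reads could be shared. Gm9786, now Oaz1-ps, matches Oaz1 at 99.71% of bases over 100% of its length. Oaz1 encodes ornithine decarboxylase antizyme, an inhibitor of polyamine synthesis. The pseudogene was listed at 43.7 in WT nuclei, 56.1 in null nuclei, 5599.6 in WT cytoplasms and 0.000933 in null cytoplasms. Oaz1 itself was at 300.7, 431, 2480.0 and 1579 in the same order. Reads from bases that both genes share cannot be told apart, so the split between the rows is uncertain and the null ratio of Gm9786 with it.

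Gm8580 had 21 near-identical other genes and Rpl26, of the large ribosomal subunit, had 5. Rpl26 values were 29.6 in WT nuclei, 62.6 in null nuclei, 621 in WT cytoplasms and 58.6 in null cytoplasms. In the row most like it, Gm15772, the values were 350.8, 584.6, 4686 and 2096. The noncoding gene 1700010D01Rik was the fourth of the 83 genes searched that had a copy of at least 95% identity over at least 50% of its length. Gm4956, a pseudogene with no such copy, had 0.416 in WT nuclei, 24.02 in null nuclei, 2.94 in WT cytoplasms and 2.56 in null cytoplasms. For this gene the 3 other columns were near the added 1 and the null nucleus alone was high.

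Metabolic enzymes and mitochondrial proteins made up 13 genes, of which 9 were higher and 1 lower in null nuclei on the relative scale. Gpi1, the glycolytic enzyme glucose-6-phosphate isomerase, had 81.7 in WT nuclei and 864 in null nuclei, with 1027 and 573 in the cytoplasms. Its relative difference was 2.29 for nuclei and 0.05 for cytoplasms. Tpmt, which methylates thiopurines, had 99.0 in WT nuclei, 576.5 in null nuclei, 767 in WT cytoplasms and 491 in null cytoplasms. Like Gpi1 it was higher in the nucleus (1.44) and within 2-fold in the cytoplasm (0.24).

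Adsl, a purine synthesis enzyme, had 14.6 in WT nuclei, 356 in null nuclei, 106 in WT cytoplasms and 138 in null cytoplasms. The null nucleus was its highest column by far, at 2.58 times the null cytoplasm. Adi1, an enzyme of the methionine salvage pathway, had 2.97 and 27.45 in the WT and null nucleus and 31.0 and 20.1 in the cytoplasms. Other enzymes of the group came in through the cytoplasm. Pnpla3, a lipase of lipid droplets, was nearly level in the nucleus as deposited, at 107 in WT and 104 in null. Its cytoplasm was 1944 in WT and 12.1 in null. Its relative differences were -1.15 in the nucleus and -6.24 in the cytoplasm.

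Upp1, which splits uridine, had 59.4 and 157 in the WT and null nucleus and 1318 and 155 in the WT and null cytoplasm. Tyms, which makes thymidylate, had 36.8 and 59.7 in the nuclei and 657 and 52.8 in the cytoplasms. For Upp1, Tyms and Cox6a2, a cytochrome c oxidase subunit, the relative nuclear difference lay between -0.54 and 0.30 and the cytoplasmic one between -2.71 and -2.19. On that scale the nuclei of these 3 were within 2-fold and the null cytoplasm was lower. As deposited, Upp1 was also more than 2-fold higher in null nuclei.

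Of 5 genes of RNA, ribosome and translation, 4 had a null nucleus value at least 2-fold above WT on the relative scale and 0 lower. They were Utp23, a factor of small ribosomal subunit assembly, Polr1b, a core subunit of RNA polymerase I, Dph5, an enzyme that modifies elongation factor 2, and Dalrd3. Dph5 had 6.32 in WT nuclei, 89.0 in null nuclei, 79.9 in WT cytoplasms and 56.4 in null cytoplasms. Utp23 had 19.01, 92.5, 281 and 77.9 in the same order. Rpl26 was the fifth, with the values given above.

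Of 10 genes that act on the genome, chromatin or cell division, 5 were higher in null nuclei on the relative scale. The gene 2210009G21Rik, now Slx4ip, encodes a partner of the SLX4 nuclease scaffold. Its values were 156 in WT nuclei, 414 in null nuclei, 2682 in WT cytoplasms and 382 in null cytoplasms, which is a relative difference of 0.30 for nuclei and -1.92 for cytoplasms. Ankle2, which acts in nuclear envelope reassembly, had 32.0, 134.9, 283 and 134.6 in the same order. Harbi1, derived from a DNA transposase, had 1.64 in WT nuclei, 69.6 in null nuclei, 45.6 in WT cytoplasms and 50.1 in null cytoplasms. In Harbi1 the null nucleus stood apart (relative difference 4.09), with the cytoplasm within 2-fold (0.97), whereas in Slx4ip it was the null cytoplasm.

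The 12 membrane and secretory pathway genes included 7 higher in null nuclei and 3 lower in null cytoplasms on the relative scale. Tram2, a factor of protein translocation at the endoplasmic reticulum, had 5.801 and 35.5 in the nuclei and 120.3 and 22.4 in the cytoplasms. Cldn9, a tight junction claudin, had 0.850 in WT nuclei, 32.7 in null nuclei, 23.8 in WT cytoplasms and 22.25 in null cytoplasms. The 12 had null nucleus values between 20.7 and 62.2, so this group held no high gene.

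The 12 immune, signalling and contact genes held 9 that were higher in null nuclei and 7 lower in null cytoplasms on the relative scale. Ifngr2, a chain of the interferon gamma receptor, had 0.988 in WT nuclei, 60.8 in null nuclei, 9.76 in WT cytoplasms and 4.15 in null cytoplasms. Its null ratio of 14.65 was the highest among genes above 1 in null cytoplasms. Mef2b, a transcription factor, had 28.2 and 61.7 in the nuclei and 606 and 21.4 in the cytoplasms. Ifi30, a lysosomal thiol reductase, had 6.18, 24.8, 161 and 13.1 in the order WT nucleus, null nucleus, WT cytoplasm and null cytoplasm. In Ifngr2 the nucleus was higher, whereas in Mef2b and Ifi30 the nucleus was within 2-fold on the relative scale and the cytoplasm lower (-3.83 and -2.58).

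Cfd, complement factor D, was at 0 in both WT columns, at 83.9 in null nuclei and at 43.1 in null cytoplasms. Oas3, an interferon-induced sensor of double-stranded RNA, had 5.04 in WT nuclei, 40.9 in null nuclei, 35.8 in WT cytoplasms and 36.4 in null cytoplasms. Mpp7, a scaffold of cell junctions, had 2.01, 22.1, 14.9 and 2.84 in the same order and is 1 of the 6 genes with opposite relative differences.

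Among 11 other protein-coding genes, 9 were higher in null nuclei on the relative scale and 0 lower. Klhdc9, a kelch-domain protein, had 2.56 in WT nuclei, 428 in null nuclei, 18.9 in WT cytoplasms and 171.5 in null cytoplasms. Gin1, derived from a retroviral integrase, had 0.440, 66.45, 11.7 and 64.5 in the same order. Both were higher in the null in both compartments, by 6.13 and 3.85 for Klhdc9 and by 5.44 and 3.03 for Gin1 on the relative scale. Dcdc2c, a doublecortin-domain protein, had 9.25 and 268 in the nuclei and 69.7 and 61.4 in the cytoplasms, so that only its nucleus differed by 2-fold on either scale.

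No match in the reference tables was found for 4 entries. The entry 44625, a plain number such as a spreadsheet makes of a date-like symbol, had 206.9 in WT nuclei, 1949 in null nuclei, 1392 in WT cytoplasms and 1815 in null cytoplasms. LOC100861572 was at 945.5 in null nuclei and at 0 in the 3 other columns, and Rnu73b, named above, shared this form. No fold is given for a gene whose other columns are all at 0.

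**Figure D3:**
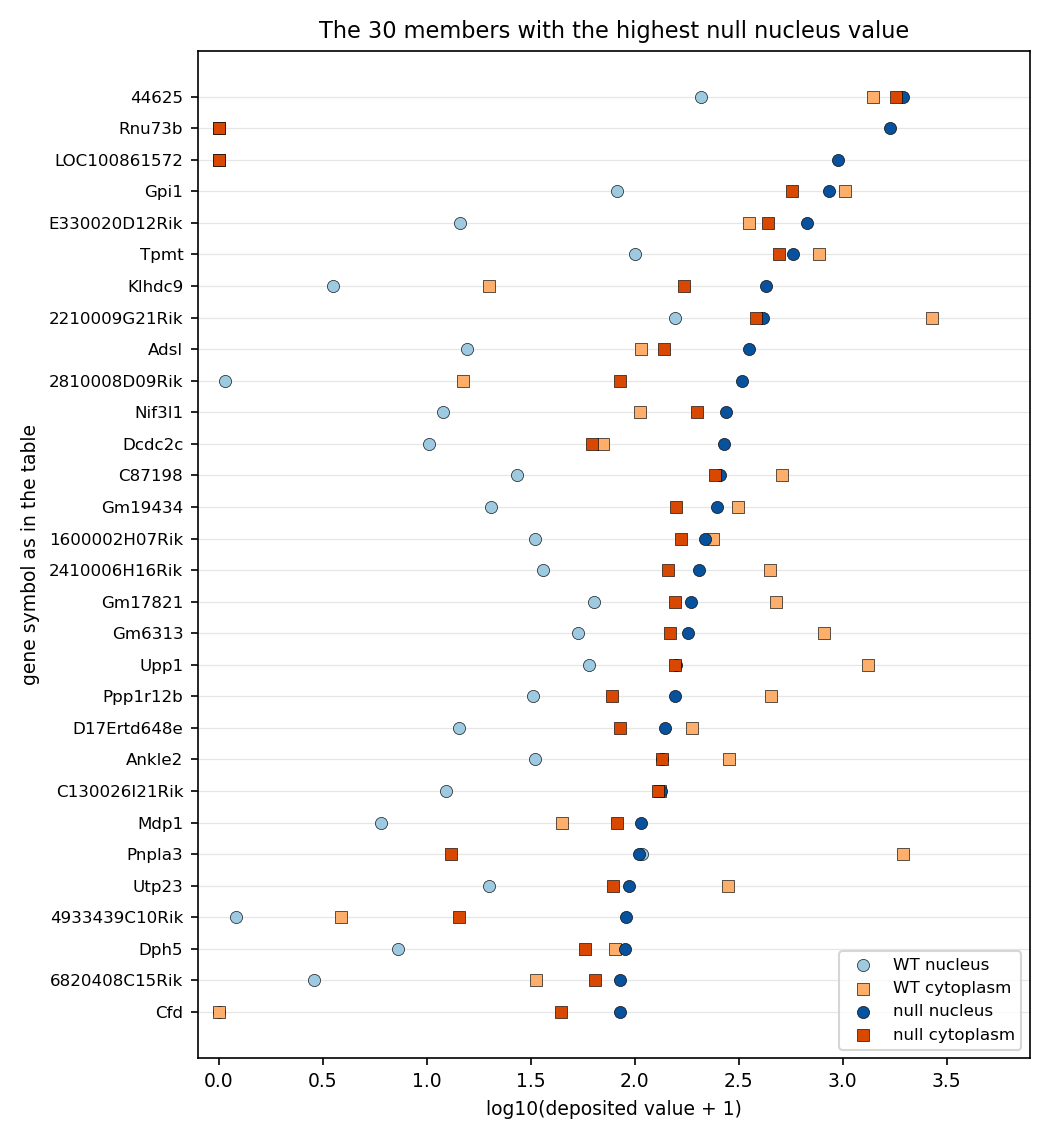
Deposited values, as log10(value + 1), of the 30 genes with the highest null nucleus value: circles are nuclei and squares cytoplasms, pale for WT and dark for null, with 1 value per column and no error. In most rows the pale circle is far left of the dark one; Pnpla3 is an exception, where the nuclear values coincide and the null cytoplasm is far below the WT cytoplasm.

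Of the 90 genes, 3 were in any of 16 functional gene lists (3.33%), beside 4.11% of all rows and 9.38% of rows with a null nucleus value of at least 20. The list of interferon and antiviral genes held Ifngr2 and Oas3. Of its 43 kept genes, 24 were higher and 1 lower in null nuclei as deposited, and 21 and 7 on the relative scale (median 0.93). The list of testis and sperm genes held Klhdc9, and of its 32 kept genes 12 were higher and 4 lower as deposited, and 7 and 8 on the relative scale. These shares can be read against those of all kept rows given above. Of 50 kept genes of RNA surveillance and decay, the pathway in which MTR4 works, 16 were higher and 2 lower in null nuclei as deposited, and 9 higher and 11 lower on the relative scale.

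Several properties of the genes did not enter the rule. For these the 90 were set beside 266 rows with the same null condition but a WT ratio above 0.15, and beside 5215 rows with a null nucleus value of at least 20 that was below the null cytoplasm. Of 85 genes matched to RefSeq (GRCm38.p6), 17 were long noncoding RNA genes (20%), beside 17.1% of the 266 and 2.95% of the 5215. Pseudogenes were 5 (5.88%, beside 2.66% and 0.598%) and protein-coding genes 63 (74.1%, beside 78.3% and 96.4%). These shares, and those below, are descriptions and were not tested. The exclusions by name had removed further noncoding entries from all 3 sets.

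The repeat stretches were sought, in either orientation, in the longest transcript of the 83 genes matched to GENCODE. The B2 stretch lay in 6 (7.23%), beside 28% of the rows with a WT ratio above 0.15 and 1.59% of the 5215. They were Gpi1, Adsl and Ankle2 in the orientation printed, and Tpmt, Harbi1 and 4933439C10Rik in the reverse. Gpi1, Tpmt and Adsl were also among the 10 highest null nucleus values. The B1 stretch lay in 6 (7.23%, beside 11.7% and 2.06%), namely Polr1b as printed and Abcd4, Ifngr2, Mau2, Pxmp4 and 5730455P16Rik in the reverse. The share with the B2 stretch thus lay between those of the 2 other sets, as did that with the B1 stretch.

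A run of 12 A within the transcript, where a primer for poly(A) tails could also start, was present in 14 of 83 (16.9%), all protein-coding, beside 17.9% and 8.21%. Its part in the values was not tested. Tpmt, Adsl, Slx4ip, Dph5 and Harbi1 were among the 14. A retained-intron isoform was annotated for 43.4% of the genes, beside 42% and 60.9%. The median transcript length was 2170 bases, beside 3120 and 2490, and GC content was 50.6% beside 47.5% and 50.4%. Single-exon transcripts were 8.43%, beside 5.84% and 2.46%.

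**Figure D4:**
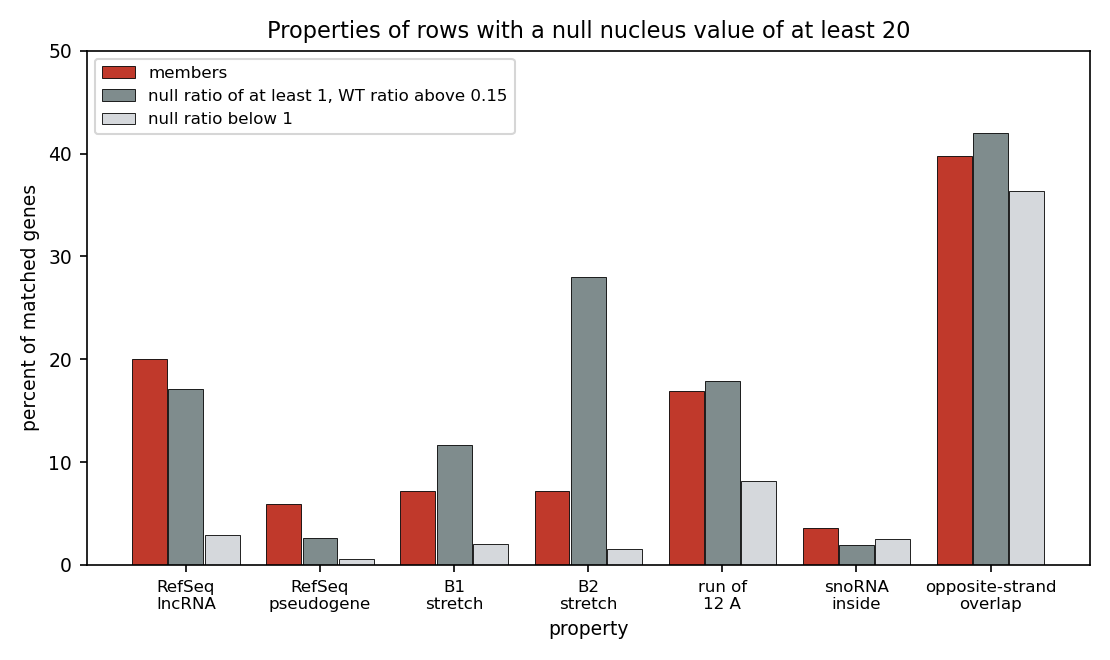
Percent of matched genes with each property (vertical, from 0) for the genes chosen, for rows with the same null condition and a WT ratio above 0.15, and for rows with a null ratio below 1. Long noncoding RNA genes are at 20%, 17.1% and 2.95% of the sets in that order, and the B2 stretch is at 7.23%, 28% and 1.59%.

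Annotated genes on opposite strands overlapped 39.8% of the genes, beside 42% and 36.4%. The sources used here do not say whether counting used the strand, so reads of a gene and of its opposite-strand partner cannot be told apart. The table held a partner for 22 of the genes, in 24 pairs, and 0 partners were among the 90. The partner was above the gene in WT cytoplasms in 10 pairs and in null nuclei in 6. A null nucleus value at least as high as the null cytoplasm value was seen in 3 of the 24 partners, all low: Hebp1 (1.20 and 0), Zc3h12b (2.99 and 0.918) and Itgad (0 in both). Among rows with a null nucleus value of at least 20 this share was 8.21%. The partners were not held to that minimum and these 3 lie below it, so the shares are not like for like.

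Klhdc9 overlaps Pfdn2, a prefoldin subunit, which had 136 in WT nuclei, 477 in null nuclei, 1858 in WT cytoplasms and 1293 in null cytoplasms. Aire, the autoimmune regulator of thymus, overlaps Dnmt3l, a DNA methylation cofactor of oocytes. Dnmt3l values were 74.7 and 134 in the nuclei and 1431 and 280.1 in the cytoplasms, whereas those of Aire were 8.32 and 32.1 in the nuclei and 144 and 28.3 in the cytoplasms. For Gm15441, the partner Txnip had 352, 406, 4669 and 1614 in the order WT nucleus, null nucleus, WT cytoplasm and null cytoplasm, against 2.905, 45.7, 82.8 and 33.6 for Gm15441. In all 3 pairs the partner was the higher gene in every column, and the share of its reads in the gene's own value was not tested.

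With at most 5 genes between them in RefSeq, there were 2 pairs, Tram2 with Gm4956 and Dcdc2c with Adi1. In the first pair Tram2 was lower in null cytoplasms (relative difference -1.46) and Gm4956 was within 2-fold there (0.36). In the other pair, Dcdc2c was 4.71 and Adi1 2.84 higher in null nuclei on the deposited scale, and both were within 2-fold in the cytoplasm.

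Membership depended on how the columns were scaled. The minimum of 20 was kept on the deposited values and the ratios were rescaled. After median-ratio rescaling, 11 rows met the rule, of which 5 were among the 90. These 5 were 2810008D09Rik, Cfd, Gm9786, LOC100861572 and Rnu73b, and the same 5 met it with column factors divided out. Neither scaling lowered the null ratio of any of the 90, so those that dropped out did so by the WT limit. Those factors were read from the digits for the nuclei and assumed for the cytoplasms, and with 0.5 in place of 1 for WT cytoplasms 8 rows met it. The limits mattered too: 65 rows met the rule with a WT limit of 0.1 and 114 with 0.2, and 54 with a null nucleus minimum of 40. With a null ratio of at least 0.5 it was 634, and with at least 2 it was 19.

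**Figure D5:**
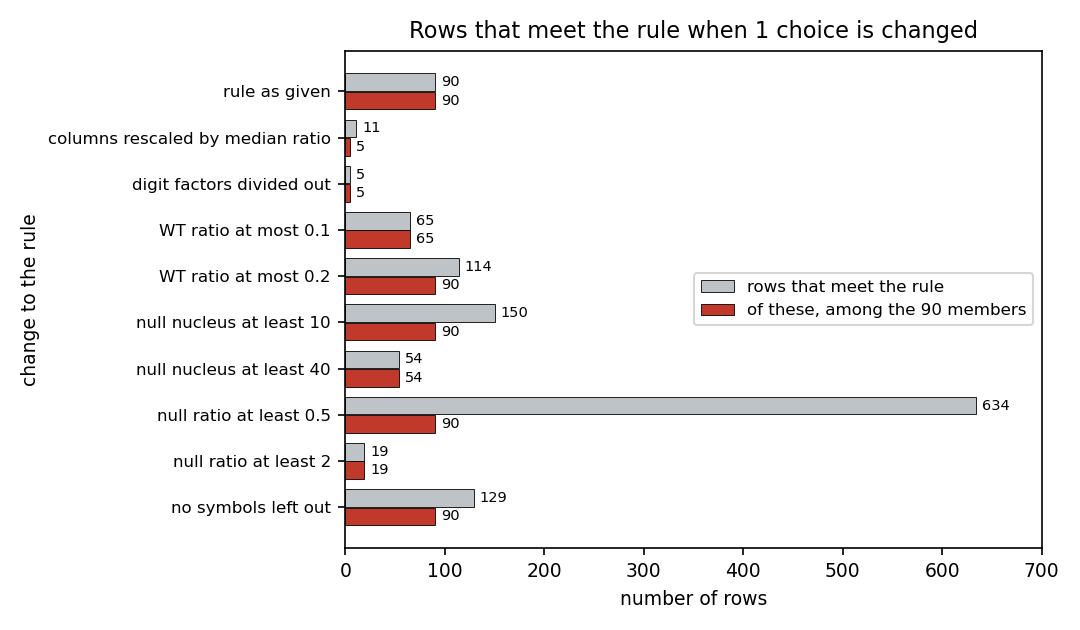
Number of rows that meet the rule (grey) and how many of them are among the 90 genes (red), as given and with 1 choice changed at a time; rescaled settings change the ratios and keep the minimum of 20 on deposited values, and the digit factors of the cytoplasms are assumed. Rescaling the columns leaves 11 rows, of which 5 are shared, and a null ratio of at least 0.5 admits 634.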

How the data were processed

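The labels describe 13 Smart-seq2 libraries of oocyte nuclei or cytoplasms. TopHat2 2.1.1, Cufflinks 2.2.1 and the build mm9 are named in the submitters' processing notes. The authors deposited 1 table of 23235 symbols with 4 columns, named as FPKM per the file's name. These deposited values were handled as a score, since the columns do not share 1 scale: once doubled, 87.6% of WT nucleus values had at most 7 digits after division by 0.125, against 23.5% without it. The null nucleus had 97.6% with a factor of 0.5, against 74.6%. This measure did not settle the cytoplasm factors (99.8% or more at 1, 0.5 and 0.25 in both), for which 1 (WT) and 0.5 (null) were assumed. The sources used here do not say how the authors averaged or scaled libraries.

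Computed here were log2(value + 1) differences, called at 2-fold, over the 14240 rows with at least 1 in at least 2 columns. Median-ratio divisors, from 14273 genes above 0 in all 4 columns, were 0.281 (WT nucleus), 3.41 (WT cytoplasm), 0.604 (null nucleus) and 1.84 (null cytoplasm). With 1 column per group no test, error or interval was possible. Steps were tested on simulated data (200 of 200 planted rows found among 23235). The planted rows were set to meet the rule and all others to fail it. Finding them thus checks the code only and says nothing of the real data.

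Gene types and names came from RefSeq (GRCm38.p6), matched for 85 of 90, and transcripts, strands and overlaps from GENCODE M21, matched for 83. Copies were sought with BLAST 2.17.0. Their build differs from mm9, so no coordinates are given. RefSeq promoter windows matched 72.2% of the genes, so that check was void. Genes described were the highest by null nucleus value, nuclear difference, change of nuclear share or null ratio, those in a list, those next to a limit or to each other, and examples chosen after their values were seen. The 90 genes, the lists and the role groups were chosen with earlier results of these data known. Python 3.11.15, pandas 2.3.3, numpy 2.4.6 and matplotlib 3.10.9 were used. Alternatives tried were other scalings, pseudocounts, filters and limits of the rule.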

Additional observations from a re-analysis of the deposited data

How the results depend on the processing

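The number of genes that met the rule (90) was, with the minimum of 20 kept on deposited values, 11 after median-ratio rescaling, 5 with the digit factors divided out (those of the cytoplasms assumed), 8 with a factor of 0.5 for the WT cytoplasm, 150 and 54 with a null nucleus minimum of 10 and 40, 634 and 19 with a null ratio of 0.5 and 2, and 43 with the median WT ratio of all kept rows as the limit. The digit factors in the differences, the factor of 0.5 and the median limit were chosen after seeing the data. Counts of differences moved with the scale of the columns. In the nucleus, genes higher in null numbered 83 as deposited and 44 with the digit factors, and genes lower numbered 0 as deposited, 2 after median-ratio rescaling, 1 after quantile normalization and 5 with the digit factors. In the cytoplasm, genes higher (6) numbered 15, 12 and 18 in that order, and genes lower (50) numbered 27, 31 and 27. Genes with WT nuclei under WT cytoplasms (87) numbered 8, 10 and 29. Genes higher in the null nucleus than in the null cytoplasm (17) numbered 88 after both rescalings, and a higher nuclear share (87) was left in 55 with the digit factors. Among the genes named by rank, list or neighbour, 2 that were 2-fold higher as deposited changed sign, both in the nucleus with the digit factors: 2210009G21Rik to -0.59 and Mef2b to -0.86. Another 10 differences of the named genes crossed the 2-fold limit with the digit factors. In the nucleus, Pnpla3 went from -0.05 to -2.05 and Gm9786 from 0.35 to -1.63. Tpmt (0.54), Tram2 (0.60) and Ifi30 (0.00) were no longer 2-fold higher there, and the rest were in the cytoplasm. Examples chosen later were not recomputed with these factors. Pseudocounts of 0.1 and 5 and no filter kept every count within 1.5 times. The causes were not tested, beyond the rescaling itself.

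No paired analysis was possible because the table holds 1 column per genotype and compartment. Leaving out each library in turn was not run for the same reason. Read depth is unknown, and it need not limit every value alike. Of the 90 genes, 11 were under 1 in WT nuclei.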
